A study of Mus musculus with 11 samples.

Results

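Triptolide added to aspirin was read from 3 lung arrays of 129S1 mice that received both drugs, set against 3 lung arrays of mice that received aspirin alone. Every autosomal gene was compared, which gave 19163 of the 19938 genes measured; a gene stood for a row of the deposited table with exactly 1 symbol, and the row with the highest mean was taken where a gene had several. The combination group had aspirin at 4 mg per kg body weight together with triptolide at 1 mg per kg, and the aspirin group had the same dose of aspirin with no triptolide. A further 3 arrays came from mice given triptolide alone at 1 mg per kg and 2 from controls without either drug, and these served to estimate the spread and to show triptolide in the absence of aspirin. Drugs were gavaged on 5 days of each week over 2 months. The titles call the controls untreated while the treatment protocol lists a PBS group, and the labels do not settle which it was. No label gives sex or age, and none says that replicates of a group were separate animals, so p-values measure only the spread between these samples, which may be technical. Values are log2 expression levels, and differences are log2, combination minus aspirin unless named otherwise, with the standard error (SE) of a limma fit over all 11 arrays. Sftpc and Scgb1a1, the surfactant and club cell genes that define lung epithelium, read 13.62 to 14.27 and 13.75 to 14.08 over all arrays.

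Triptolide is a diterpenoid of the thunder god vine that binds the helicase encoded by Ercc3, a subunit of the general transcription factor TFIIH, and blocks transcription by RNA polymerase II. Aspirin acetylates the cyclooxygenases, the enzymes that start prostaglandin and thromboxane synthesis, and so lowers platelet activation. In the lung, flat alveolar type 1 cells and the capillary endothelium beneath them form the surface of gas exchange, while club, goblet and ciliated cells line the airways. Heat shock chaperones fold proteins in every cell, and their genes are induced by the factor HSF1, which binds inverted repeats called heat shock elements.

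The arrays differed in 2 further ways that touch every result. In a principal component analysis combination 1 scored 60.2 on the leading component (45.5% of the variance), and no other array went beyond the range from -15 to 6.8. Results are therefore given with and without combination 1. Xist, a noncoding RNA of the inactive X chromosome, read 12.26, 12.80 and 12.31 in the combination arrays and 7.0, 6.86 and 6.77 in the aspirin arrays. The mean of the Y-linked genes Uty, Kdm5d and Eif2s3y read 6.302, 5.670 and 6.734 with the combination and 8.881, 9.090 and 8.996 with aspirin. Combination and aspirin thus lay wholly apart in sex-linked expression, so the addition of triptolide and this difference cannot be told apart from these 6 arrays alone. The control arrays lay with the combination, at 11.98 and 12.07 in Xist and at 5.943 and 5.809 in the Y-linked level. Triptolide 1, 2 and 3 read 12.32, 9.75 and 6.61 in Xist and 6.551, 9.36 and 9.075 in the Y-linked level. That group was thus not uniform, and triptolide 2 lay between combination and aspirin in Xist with the highest Y-linked level of all arrays.

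**Figure D1:**
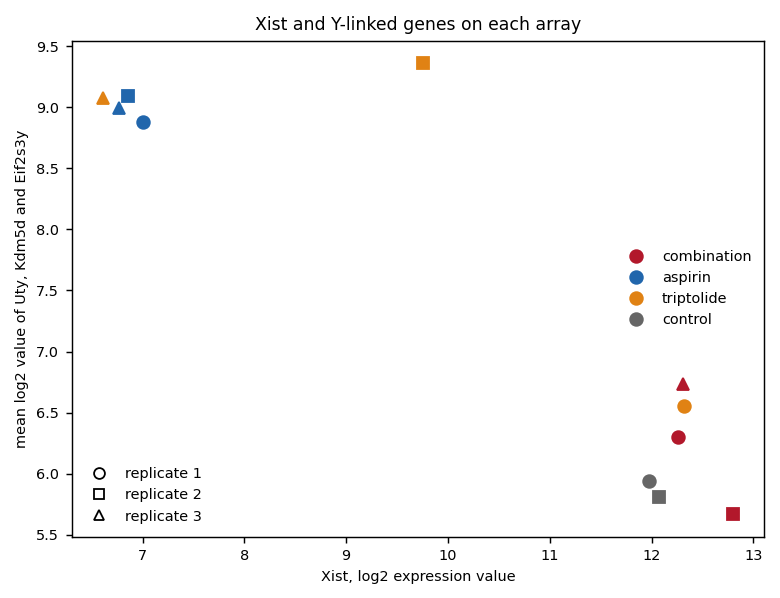
Each point is 1 array; the horizontal axis is the log2 value of Xist and the vertical axis the mean log2 value of Uty, Kdm5d and Eif2s3y, with colour for the group and shape for the replicate. The 3 combination arrays lie at the lower right beside the 2 control arrays, and the 3 aspirin arrays lie at the upper left. Triptolide 1 lies near the combination arrays, triptolide 3 near the aspirin arrays, and triptolide 2 at the top, between them in Xist.

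No gene passed at an adjusted p under 0.05 (Benjamini-Hochberg over all 19938 genes), with or without combination 1. The smallest limma adjusted p was 0.0643 with all arrays and 0.0569 without combination 1. Single arrays decided this count: 683 genes passed without combination 3, 108 higher and 575 lower, and 7 without triptolide 1. At an unadjusted p under 0.05 limma gave 2242 genes (11.7% of those tested), of which 645 (3.37%) lay higher and 1597 (8.33%) lower with the combination, where 5% of the genes would be 958. Without combination 1 the count was 1819 (9.49%), with 775 higher (4.04%) and 1044 lower (5.45%). A total of 1253 genes (6.54%), 373 higher (1.95%) and 880 lower (4.59%), reached this threshold with the same sign in both fits, so that 55.9% of the genes were kept without combination 1. Combination 1 was the lowest of its group in 711 of these 880 lower genes, and the highest in 154 of the 373 higher genes. Left out in turn, each of the 11 arrays left 937 genes at an unadjusted p under 0.05 with the same sign in every fit, 213 of them higher and 724 lower.

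At the looser adjusted p of 0.1, chosen after the values were seen, limma gave 43 genes (0.224%), 7 higher (0.0365%) and 36 lower (0.188%). The combination and aspirin groups did not overlap in any of the 43, which follows from their choice by the p of the same arrays; over all autosomal genes 15.4% did not overlap (5.37% higher, 10% lower). All 43 kept their sign at an unadjusted p under 0.05 without combination 1 and in each of the 11 fits that left out 1 array. This too follows largely from their choice by the p of the same arrays. Leaving out a triptolide or control array cannot change the difference, only its SE. Without combination 1 an adjusted p under 0.1 was kept by 4 genes (0.0209%), namely Igkv5-43 and a further kappa light chain segment among the higher genes (0.0104%) and Tekt5 and Car4 among the lower (0.0104%). The difference was smaller without combination 1 in 38 of the 43, at 0.78 to 1.16 times its size with it and a median of 0.88. When the Y-linked level entered the fit as a covariate, which raised the median SE 1.78 times, all 43 kept their sign and 30 kept an unadjusted p under 0.05. Within groups this level varied most among the triptolide arrays, at 6.551, 9.36 and 9.075. The adjustment therefore rests largely on triptolide 1 against triptolide 2 and 3, here and in each list below.

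The 7 higher genes were Hsph1, a chaperone of the Hsp110 family, Derl3, which retrieves misfolded proteins from the endoplasmic reticulum, Irf4, a transcription factor of plasma cell formation, Igha, the heavy chain constant region of IgA, Igkv5-43 and a further variable segment of the kappa light chain, and Hepacam2. Of these, Igha, Irf4 and Derl3 are on the plasma cell list. Among the 36 lower genes, Eng, Cdh5, Flt1 and Sox18 are on the pan-endothelial list, Gja4 on the arterial list, Car4 on those of capillary subtypes and alveolar macrophages, and Bmp6, Smad6 and again Eng on that of bone morphogenetic protein (BMP) signalling. Ifit3 is on the interferon list and Tekt5, a filament protein of flagella, on the ciliated list. The other lower genes are on none of the lists. They include the receptor genes Ephb4 and Ramp2, the prostaglandin transporter Slco2a1, the transcription factor genes Sox7, Tbx3 and Myrf, the secreted signals Edn1, Edn3 and Sema3f, the surface protein Podxl, the peroxidasin Pxdn, and the intermediate filament proteins Nes and Krt80. Ces1g is a carboxylesterase, Car14 a carbonic anhydrase, Igfbp6 a binding protein of insulin-like growth factors, Stmn2 a microtubule regulator, Asic2 an acid-sensing channel and Pcdh1 a protocadherin. Prickle2, Cyyr1, Tspan18, Tspan15, Ppp1r16b, Pitpnc1 and Sh3rf2 complete the lower genes.

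Chaperones of the heat shock response lay higher with the combination. Of 22 measured members 19 lay above aspirin, with a median of 0.43, against 9554 of 19163 and a median of 0.00 over all autosomal genes; 17 were higher and 1 lower at an unadjusted p under 0.05, against 3.37% and 8.33% of all autosomal genes. Without combination 1 the median was 0.35, with 15 higher and 1 lower, against 4.04% and 5.45% of all autosomal genes. These shares, with and without combination 1, are also the background for the counts of combination minus aspirin in each list below. For groups that did not overlap, the shares with all arrays were 5.37% higher and 10% lower. Of the 19 members with a promoter sequence in RefSeq (GRCm38.p6), 9 (47.4%) held a heat shock element core, written here as GAANNTTC or TTCNNGAA, in the 250 bases before the start site, against 1997 of 15007 autosomal genes (13.3%). The list was drawn up from heat shock genes, so its higher share follows largely from that choice. Each motif reads the same on both strands, and overlapping matches were counted together. The promoter stretches of 5 members follow, shown because they hold the motif and were higher at an unadjusted p under 0.05, with the matched bases in capitals, 5′ to 3′ on the strand of the gene. They lie at chr5:149636337-149636586 (minus strand) for Hsph1, chr4:40722298-40722397 (plus) for Dnaja1, chr6:128438754-128438853 (minus) for Fkbp4, chr1:55088013-55088112 (plus) for Hspe1 and chr17:34972207-34972306 (minus) for Hspa1a. Other members that were higher, among them Stip1, Cacybp and Hspa4l, held no such core in this window. A match is a description of these letters, not a measured binding site.
Hsph1: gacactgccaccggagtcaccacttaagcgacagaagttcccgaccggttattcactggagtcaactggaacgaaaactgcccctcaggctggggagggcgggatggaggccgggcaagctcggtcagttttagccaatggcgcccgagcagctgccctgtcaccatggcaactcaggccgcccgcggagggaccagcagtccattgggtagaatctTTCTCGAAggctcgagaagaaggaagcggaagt
Dnaja1: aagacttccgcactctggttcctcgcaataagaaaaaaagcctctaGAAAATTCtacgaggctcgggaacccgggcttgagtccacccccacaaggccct
Fkbp4: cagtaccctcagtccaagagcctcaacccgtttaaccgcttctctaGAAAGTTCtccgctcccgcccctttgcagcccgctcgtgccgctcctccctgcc
Hspe1: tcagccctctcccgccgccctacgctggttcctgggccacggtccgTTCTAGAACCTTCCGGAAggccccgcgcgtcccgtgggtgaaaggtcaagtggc
Hspa1a: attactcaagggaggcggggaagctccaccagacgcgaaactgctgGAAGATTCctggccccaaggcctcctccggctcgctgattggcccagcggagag

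Hsph1, whose core ends 25 bases before its start site, read 10.30, 10.04 and 10.08 in the combination arrays, against 8.94, 9.14 and 8.65 with aspirin. It differed by 1.23 ± 0.16 (limma adjusted p = 0.0643), and by 1.15 without combination 1. All combination arrays lay above all aspirin arrays, and Hsph1 read 9.89, 9.44 and 9.78 with triptolide alone and 8.83 and 9.22 in control. Dnaja1, a J-domain partner of Hsp70, read 10.95, 11.19 and 11.25 with the combination and 10.52, 10.68 and 10.69 with aspirin, a difference of 0.50 ± 0.10. Without combination 1 Dnaja1 differed by 0.59, so the lowest of its 3 combination arrays was the one left out. Stip1, which bridges Hsp70 and Hsp90, read 11.12, 10.70 and 10.71 with the combination and 10.18, 10.38 and 10.13 with aspirin (0.61 ± 0.12). Cacybp, which binds calcyclin, differed by 0.45 ± 0.08 and Hspa4l, a relative of Hsph1, by 0.47 ± 0.13. In each of these genes the groups did not overlap.

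Hspa1a, the inducible Hsp70, read 9.41, 9.76 and 9.81 with the combination, against 8.99, 9.22 and 9.01 with aspirin. It differed by 0.59 ± 0.22, and triptolide 3 held its highest value, 10.48. Hspe1, the mitochondrial co-chaperonin, read 11.48, 10.87 and 10.84 with the combination and 10.34, 10.50 and 10.58 with aspirin (0.59 ± 0.16). Combination 1 was its highest array, and the difference without it was 0.38. Fkbp4, an Hsp90 co-chaperone, differed by 0.28 ± 0.10. Of the 3 members below aspirin, the 1 past an unadjusted p under 0.05 was Cryab, a small heat shock protein abundant in muscle and lens. Cryab read 11.16, 11.53 and 11.91 with the combination and 12.15, 12.25 and 12.28 with aspirin (-0.69 ± 0.16). The list level, the mean over members of the value minus the member's mean over 11 arrays, was 0.16, 0.12 and 0.15 with the combination and -0.27, -0.12 and -0.24 with aspirin. It was 0.09, 0.10 and 0.21 with triptolide and -0.16 and -0.04 in control, and after adjustment for the Y-linked level the list median was 0.40.

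**Figure D2:**
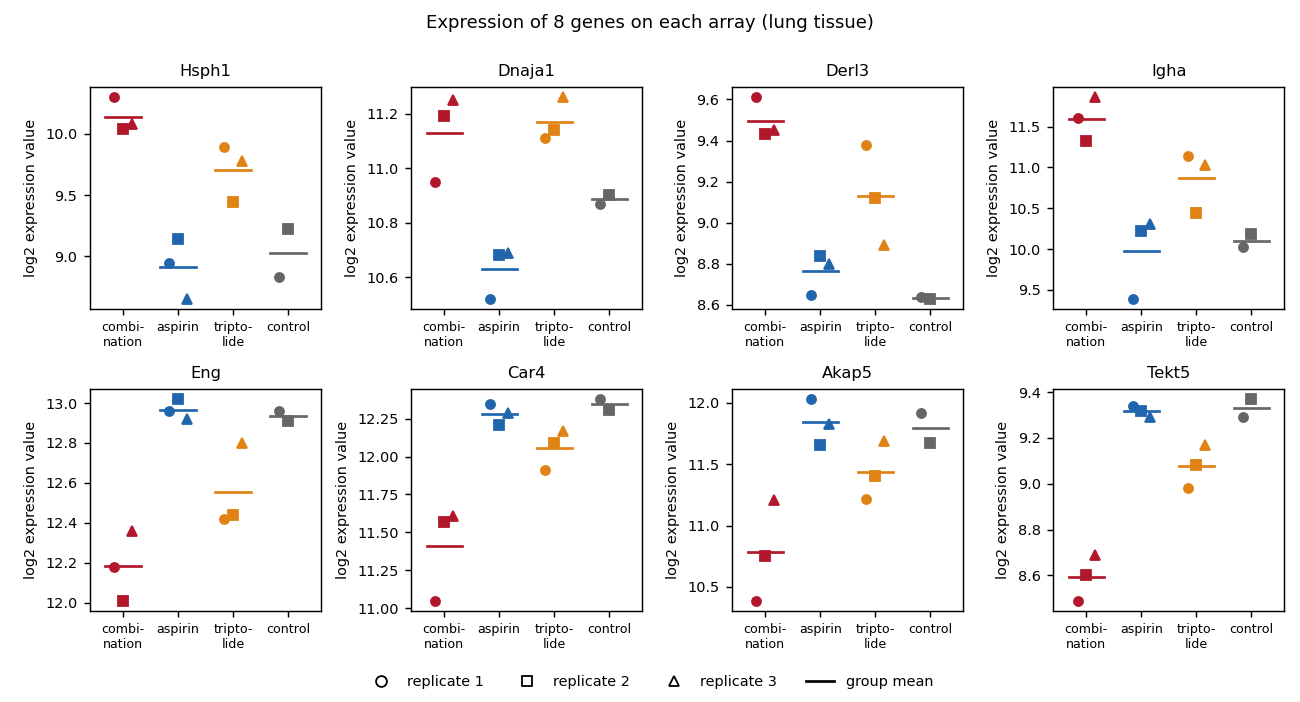
Points are the log2 expression values of 8 genes on single arrays, with horizontal bars for group means and shape for the replicate; vertical axes differ between panels and do not start at 0. Hsph1, Dnaja1, Derl3 and Igha are higher on all 3 combination arrays than on any aspirin array, and Eng, Car4, Akap5 and Tekt5 are lower.

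Genes of the endoplasmic reticulum that fold and export proteins lay higher beside them, by less. Of 26 members 22 lay above aspirin, with a median of 0.16, and 8 were higher and 0 lower at an unadjusted p under 0.05; without combination 1 these were 0.21, 14 and 0. Derl3 read 9.61, 9.43 and 9.45 with the combination and 8.65, 8.84 and 8.80 with aspirin, a difference of 0.74 ± 0.12 (limma adjusted p = 0.0967). Sdf2l1, a chaperone cofactor, differed by 0.60 ± 0.12, Creld2 by 0.44 ± 0.10 and Pdia4, a disulfide isomerase, by 0.44 ± 0.10. All 4 had groups that did not overlap, and Derl3 and Creld2 are also on the plasma cell list.

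Markers of plasma cells, which secrete antibodies, were above aspirin in 15 of 18 members, with a median of 0.43. There were 9 higher and 0 lower, and 10 and 0 without combination 1. Igha read 11.61, 11.32 and 11.86 with the combination, against 9.39, 10.22 and 10.31 with aspirin. It differed by 1.62 ± 0.25 (limma adjusted p = 0.0967), and by the same 1.62 without combination 1. Irf4 read 9.15, 8.85 and 8.87 with the combination and 8.07, 8.21 and 8.29 with aspirin (0.77 ± 0.13). The light chain segment Igkv5-43, named after its values were seen and uncertain because such segments have near-identical relatives, read 8.33, 9.17 and 9.91 with the combination and 5.89, 7.32 and 6.79 with aspirin (2.47 ± 0.42). The plasma cell level was even over the combination arrays, at 0.24, 0.30 and 0.31, against -0.37, -0.09 and -0.08 with aspirin, and it was 0.25, -0.06 and -0.07 with triptolide and -0.26 and -0.16 in control. After adjustment for the Y-linked level the median was 0.09, against 0.43 without it. In bulk tissue fewer cells of a type and less RNA per cell cannot be told apart, here or in any list that follows.

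Mature B cell markers lay above aspirin in 16 of 16 members (median 0.78), with 11 higher and 0 lower, and 5 and 0 without combination 1, where the median was 0.42. Ms4a1, the CD20 antigen, read 11.01, 10.40 and 9.09 with the combination and 8.22, 8.28 and 8.90 with aspirin. It differed by 1.70 ± 0.46. Cd79a, a signalling chain of the B cell receptor, differed by 1.22 ± 0.38 and Pou2af1, a B cell coactivator, by 0.89 ± 0.27. Unlike the plasma cell level, the B cell level was uneven among the combination arrays, at 1.14, 0.38 and -0.11, against -0.30, -0.46 and -0.12 with aspirin, and triptolide 1 stood at 0.40. The median was 0.00 after adjustment for the Y-linked level, and -0.37 with 0 of 16 above aspirin when combination 1 was left out as well.

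Endothelial genes lay lower with the combination. Of 22 pan-endothelial markers 21 lay below aspirin with a median of -0.62, and 21 were lower at an unadjusted p under 0.05 both with all arrays and without combination 1, where the median was -0.51. Eng, a co-receptor for BMP9, read 12.18, 12.01 and 12.36 with the combination and 12.96, 13.02 and 12.92 with aspirin, a difference of -0.78 ± 0.12 (limma adjusted p = 0.0967). Cdh5, the cadherin of endothelial junctions, read 11.84, 12.14 and 12.29 with the combination and 12.76, 12.90 and 12.67 with aspirin (-0.68 ± 0.13). The groups did not overlap in 21 of the 22, all lower, against 10% of all autosomal genes lower without overlap. Flt1, a receptor for vascular endothelial growth factor, read 10.35, 10.55 and 10.80 with the combination and 11.18, 11.22 and 11.33 with aspirin (-0.68 ± 0.12). Sox18, a transcription factor of vessel identity, differed by -0.70 ± 0.13.

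The pan-endothelial level was -0.64, -0.36 and -0.20 with the combination and 0.24, 0.21 and 0.15 with aspirin. It was -0.14, -0.07 and 0.17 with triptolide and 0.36 and 0.27 in control. Combination 1 was thus the lowest array and combination 3 the highest of its group, an order that recurred in most of the 36 lower genes: combination 1 was lowest in 30 and combination 3 highest in 34. Arterial and Notch markers lay lower in 14 of 15 members (median -0.40, 10 lower, and 8 without combination 1). Gja4, a gap junction protein of arteries, read 8.84, 9.17 and 9.06 with the combination and 9.71, 9.66 and 9.83 with aspirin (-0.71 ± 0.11). Sema3g, a semaphorin of arterial endothelium, differed by -0.47 ± 0.09 and the receptor Notch4 by -0.54 ± 0.11. Markers of capillary subtypes lay lower in 13 of 14 (median -0.43, 9 lower, and 8 without combination 1). Car4, a carbonic anhydrase of alveolar capillaries, read 11.05, 11.57 and 11.61 with the combination and 12.35, 12.21 and 12.29 with aspirin (-0.87 ± 0.14), and Ednrb, an endothelin receptor, differed by -0.84 ± 0.16. After adjustment for the Y-linked level the medians were -0.43 for the pan-endothelial, -0.20 for the arterial and -0.28 for the capillary list. When combination 1 was left out as well they were -0.29, -0.11 and -0.04.

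BMP signalling genes lay lower in 15 of 17 members (median -0.45), with 10 lower and 0 higher. Without combination 1 the median was -0.29, with 9 lower and 2 higher. Smad6, an inhibitor within the pathway, read 10.16, 10.30 and 10.38 with the combination and 10.93, 11.13 and 10.90 with aspirin. It differed by -0.70 ± 0.10 (limma adjusted p = 0.0967). The ligand Bmp6 read 10.54, 10.60 and 10.84 with the combination and 11.53, 11.64 and 11.37 with aspirin (-0.85 ± 0.14), and the receptor Bmpr2 differed by -0.63 ± 0.13. In all 3 the groups did not overlap. The list median was -0.12 after adjustment for the Y-linked level, and -0.01 when combination 1 was left out as well.

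All 15 alveolar type 1 markers lay below aspirin, at a median of -0.59, and 14 were lower at an unadjusted p under 0.05. Without combination 1 the median was -0.37, and again 14 were lower. Akap5, a kinase anchor, read 10.39, 10.75 and 11.21 with the combination and 12.03, 11.66 and 11.83 with aspirin (-1.06 ± 0.20). Clic5, a chloride channel protein of this cell type, read 11.69, 12.06 and 12.38 with the combination and 12.66, 12.69 and 12.79 with aspirin (-0.67 ± 0.15). Hopx, a transcriptional cofactor, and Emp2, a membrane protein, each differed by -0.62 ± 0.15. The groups did not overlap in 14 members, all lower, against 10% of all autosomal genes lower without overlap. The list level was -0.76, -0.33 and -0.05 with the combination, against 0.24, 0.16 and 0.22 with aspirin. After adjustment for the Y-linked level the median was -0.45, and -0.25 when combination 1 was left out as well. Type 2 markers, of the cells that make surfactant, had a median of -0.25 that was -0.03 without combination 1, and 2 of 18 members were lower with all arrays and 0 without it. With the adjustment and without combination 1 it was 0.11, the opposite sign. Lyz1, a lysozyme, differed by -0.57 ± 0.20 and Etv5, a transcription factor of these cells, by -0.46 ± 0.18.

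Xenobiotic enzymes lay lower in 14 of 16 (median -0.36, 6 lower), and without combination 1 the median was -0.18 with 4 lower. Adjusted for the Y-linked level it was -0.23, and with that adjustment and without combination 1 it was 0.01 with 9 of 16 above aspirin, so the direction was not kept there. Cyp4b1, a cytochrome P450 of the lung, read 12.21, 12.57 and 12.83 with the combination and 13.22, 13.22 and 13.17 with aspirin (-0.67 ± 0.14), and Fmo1, a flavin monooxygenase, differed by -0.71 ± 0.16. Mesothelial markers, of the pleural surface, lay lower in 12 of 12 (median -0.56, 6 lower, and -0.35 with 4 lower without combination 1). Upk3b read 9.26, 10.41 and 9.37 with the combination and 10.65, 10.04 and 11.37 with aspirin, so that the groups overlapped. Of 19 MAPK feedback genes and ligands of the epidermal growth factor receptor 18 lay below aspirin, at a median of -0.21 and 4 lower, and of -0.08 and 2 lower without combination 1. Adjusted for the Y-linked level, 9 of the 19 lay above aspirin. With that adjustment and without combination 1 the median was 0.14 with 16 above, so the direction was not kept in that fit. Fibroblast genes had a median of -0.15 with all arrays and 0.05 without combination 1, and smooth muscle genes medians of -0.15 and 0.04, so both turned.

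Airway secretory genes lay higher in part. Of 17 members 13 lay above aspirin with a median of 0.87, and 8 were higher and 0 lower with all arrays and also without combination 1, where the median was 0.88. Muc5b, a gel-forming mucin, read 11.12, 11.84 and 10.98 with the combination and 8.53, 10.22 and 8.58 with aspirin. It differed by 2.20 ± 0.53. Muc5ac, the mucin of goblet cells, read 8.68, 9.20 and 8.31 with the combination and 8.01, 7.92 and 7.74 with aspirin (0.84 ± 0.24). Agr2, which folds mucins, read 9.20, 9.92 and 7.93 with the combination and 7.52, 7.71 and 7.41 with aspirin (1.47 ± 0.44), and Tff2, a peptide secreted with mucus, differed by 1.12 ± 0.26. The club cell genes Scgb1a1 and Cyp2f2 differed by -0.04 ± 0.09 and -0.17 ± 0.12. Combination 2 had the highest list level, at 0.43, 1.18 and 0.15 over the combination arrays and -0.55, 0.19 and -0.65 over the aspirin arrays, and triptolide 1 stood at 0.39. After adjustment for the Y-linked level the median was -0.02, so the direction of this list was not kept in that fit. The adjustment rests largely on triptolide 1, which stood above triptolide 2 and 3 in this list, at 0.39 against -0.52 and 0.07.

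The count for ciliated cell markers depended on combination 1: the median was 0.13 with 0 of 22 higher, and 0.36 with 13 higher without that array. Its median was -0.16 after adjustment for the Y-linked level, the opposite sign. Dnah5, a motor protein of cilia, read 9.44, 10.45 and 9.98 with the combination and 9.47, 9.72 and 9.36 with aspirin. Tekt5, which was listed here, went the other way in both fits, at 8.49, 8.60 and 8.69 with the combination and 9.34, 9.32 and 9.29 with aspirin. It differed by -0.72 ± 0.08 (limma adjusted p = 0.0643) and had the smallest unadjusted p of all autosomal genes, 3.44e-06.

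All 12 platelet and megakaryocyte markers lay below aspirin, at a median of -0.75, and 7 were lower. Without combination 1 the median was -1.01 with 11 lower. Clec1b, a platelet activation receptor, read 7.0, 6.90 and 6.97 with the combination and 7.42, 7.97 and 7.52 with aspirin (-0.68 ± 0.13). Nrgn differed by -0.59 ± 0.19 and Alox12, the platelet lipoxygenase, by -1.16 ± 0.45. Among the 12 members the groups did not overlap in 1 alone, Clec1b, against 10% of all autosomal genes lower without overlap. The list's level was 0.61, -0.59 and -0.38 over the combination arrays and 0.10, 1.51 and 0.47 over the aspirin arrays, with aspirin 2 highest. It was -0.44, -0.31 and -0.13 with triptolide and -0.40 and -0.43 in control, so combination 2 and 3 lay nearer to control than any aspirin array did. Without aspirin 2 the median was -0.39. The median was -0.43 after adjustment for the Y-linked level. Aspirin 2 also stood at a neutrophil level of 1.78, with the other aspirin arrays at -0.32 and -0.43. Neutrophil markers had a median of -0.24 with 1 of 21 lower.

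Prostanoid genes, the pathway on which aspirin acts, had a median of 0.00, with 2 of 17 higher and 2 lower. Hpgd, which inactivates prostaglandins, read 11.89, 11.94 and 12.44 with the combination and 12.75, 13.12 and 12.75 with aspirin. It differed by -0.79 ± 0.15. The prostaglandin receptor Ptger4 differed by 0.36 ± 0.11 and the phospholipase Pla2g2d by 0.81 ± 0.30, both without overlap of the groups. Ptgs2, the inducible cyclooxygenase, read 9.30, 10.06 and 10.11 with the combination and 9.51, 10.68 and 9.79 with aspirin (-0.18 ± 0.29), so that the groups overlapped.

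Genes of antigen presentation by MHC class II lay higher in 11 of 12 members (median 0.34), with 8 higher and 0 lower, and 7 and 0 without combination 1. H2-Eb1, a class II chain, read 12.10, 12.37 and 12.22 with the combination and 11.82, 11.72 and 12.07 with aspirin (0.36 ± 0.11), and the costimulator Cd86 differed by 0.50 ± 0.15. Monocyte, macrophage and dendritic markers had 7 of 19 higher and 2 lower, and 9 and 0 without combination 1. The complement gene C1qb differed by 0.61 ± 0.17 and Flt3, a receptor of dendritic cell precursors, by 0.42 ± 0.11. T and natural killer markers had 6 of 22 higher and 0 lower in both fits, with medians of 0.19 and 0.12; Cd4 read 8.86, 8.57 and 8.66 with the combination and 7.89, 8.15 and 8.28 with aspirin (0.59 ± 0.18). After adjustment for the Y-linked level the medians were 0.10 for MHC class II and -0.01 for T and natural killer cells.

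Red cell and cell division genes stood out on combination 1. Erythroid genes lay above aspirin in 18 of 18 members with all arrays (median 0.89) and in 5 of 18 without combination 1 (median -0.12). The erythroid level was 3.13, -0.18 and -0.45 with the combination, against -0.27, 0.08 and -0.17 with aspirin, and Car1, a carbonic anhydrase of red cell precursors, read 13.54 in combination 1 and 7.90 and 7.05 in the other combination arrays. Cell cycle genes had a median of 1.03 with all arrays and 0.13 without combination 1, and S phase histone genes 0.84 and 0.16. Mki67, a marker of dividing cells, read 12.60, 9.08 and 8.26 with the combination and 8.13, 9.19 and 8.33 with aspirin. At an unadjusted p under 0.05, 0 of 18 erythroid, 1 of 26 cell cycle and 1 of 11 histone genes were higher with all arrays.

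**Figure D3:**
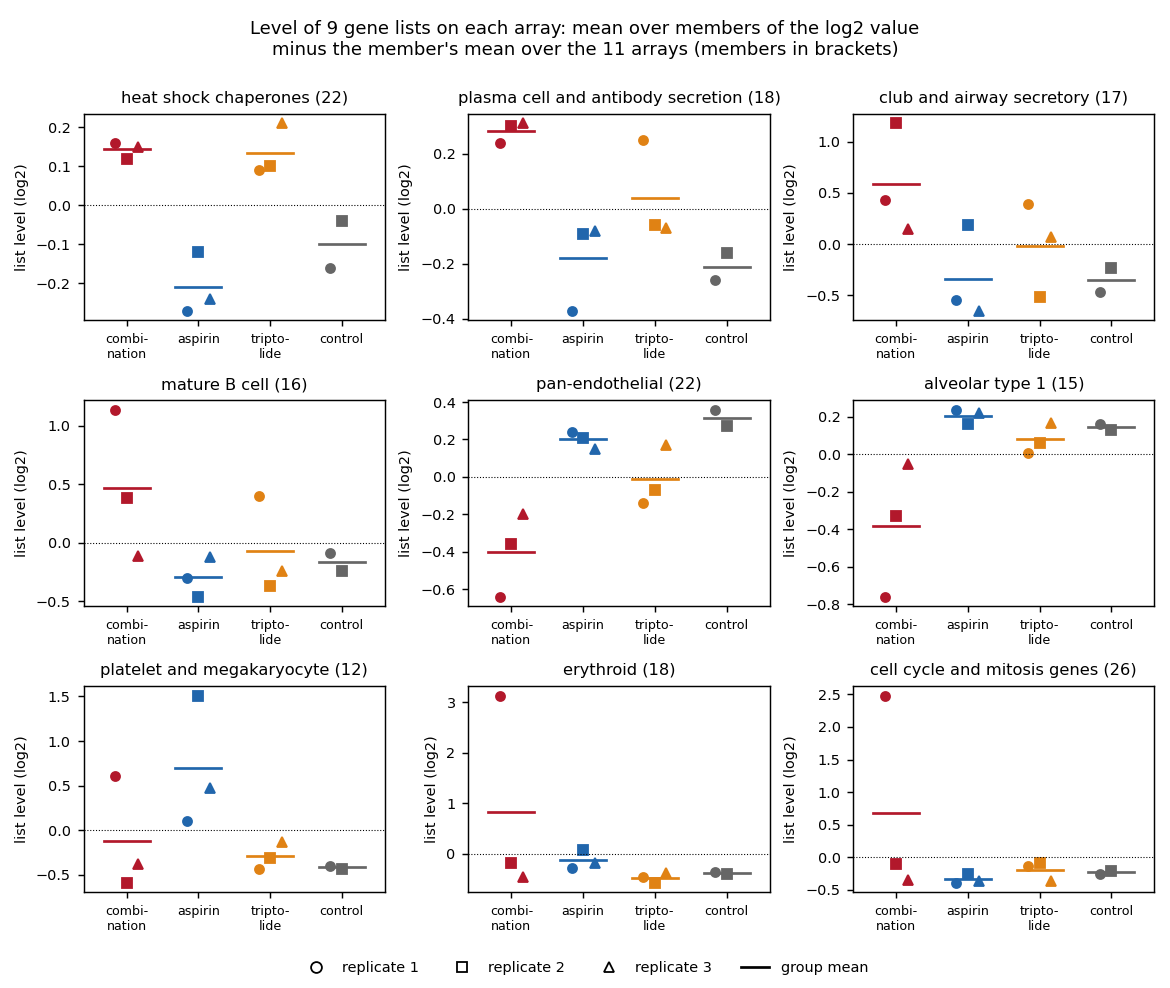
Points are the level of 9 gene lists on single arrays (mean over the members of the log2 value minus the member's mean over the 11 arrays), with bars for group means and shape for the replicate. Heat shock and plasma cell levels are alike on the 3 combination arrays, pan-endothelial and alveolar type 1 levels are lowest on combination 1, and the erythroid and cell cycle levels stand apart on combination 1 only.

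Triptolide's target complex and pathways it is known to touch were compared in the same way, against 11.7% of all autosomal genes at an unadjusted p under 0.05. Of 18 genes of TFIIH and the RNA polymerase II machinery 0 were higher or lower at an unadjusted p under 0.05 in either fit, and the median was 0.03. Ercc3 read 10.25, 10.19 and 10.31 with the combination and 10.25, 10.33 and 10.31 with aspirin (-0.05 ± 0.07). Of 16 apoptosis regulators and 15 cholesterol synthesis genes 0 were higher or lower, at a median of -0.05 each. NF-kB targets had a median of 0.10 with 3 of 20 higher and 1 lower; the chemokine Cxcl2 differed by 0.56 ± 0.14, the adhesion molecule Icam1 by -0.49 ± 0.14 and the subunit Rela by -0.23 ± 0.11. Among 21 immediate early genes 1 was higher and 2 lower; Ier3 differed by -0.64 ± 0.14 and Jun by -0.53 ± 0.15. Myc, a transcription factor of growth, read 10.81, 9.64 and 9.40 with the combination and 8.94, 9.05 and 9.09 with aspirin (0.92 ± 0.28, and 0.49 without combination 1). Ifit3 read 10.05, 10 and 10.08 with the combination and 10.65, 10.78 and 10.90 with aspirin (-0.74 ± 0.10). The list of 18 interferon-induced genes, Ifit3 among them, had a median of 0.02, with 2 higher and 1 lower, which was Ifit3. Glucocorticoid-induced genes, at a median of 0.22, and clock genes, at -0.15, had 0 and 1 members past an unadjusted p under 0.05. Both medians turned after adjustment for the Y-linked level, to -0.15 and 0.20, and with an aspirin array left out, to -0.04 for glucocorticoid-induced genes without aspirin 1 and 0.05 for clock genes without aspirin 3. Of the 46 lists described here or shown by their medians, those not given in the text had medians between -0.39 and 0.21.

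**Figure D4:**
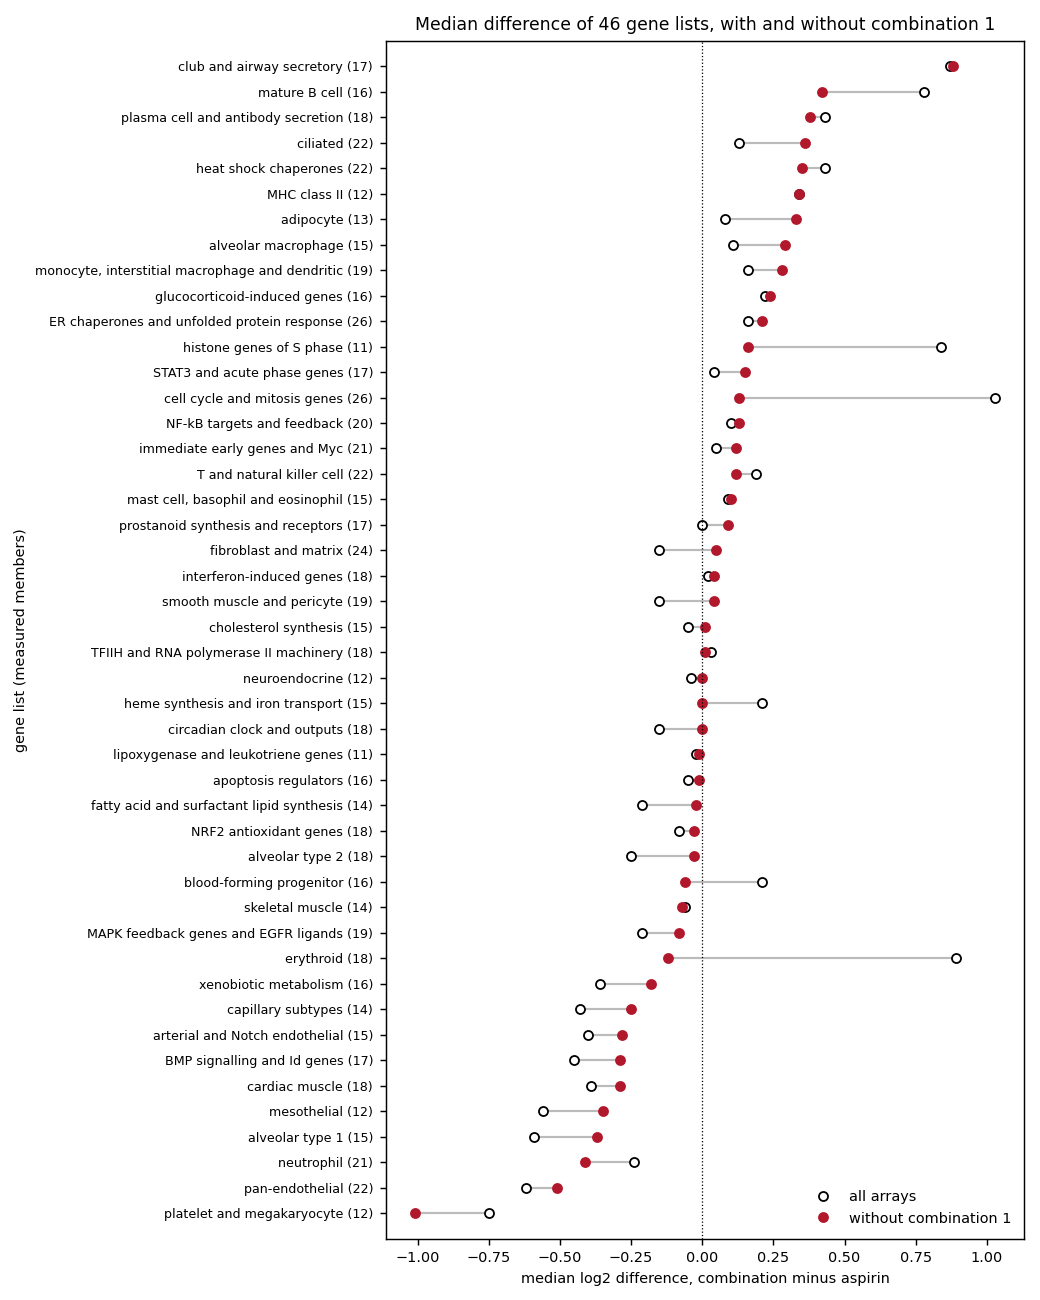
For each of 46 gene lists, with its number of measured members, the median log2 difference of combination minus aspirin is plotted with all arrays (open circles) and without combination 1 (filled circles), sorted by the second. Heat shock, plasma cell and secretory lists stay above 0 and platelet, endothelial and alveolar type 1 lists below 0 in both, while the erythroid list moves from 0.89 with all arrays to -0.12 without combination 1.

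Triptolide was also given without aspirin, and triptolide minus control shares no array with combination minus aspirin. This comparison was itself uneven in sex-linked expression, the opposite way. Xist differed by -2.47 and Uty by 2.49 in it, against 5.58 and -2.71 in combination minus aspirin. Triptolide minus control gave 524 autosomal genes at an unadjusted p under 0.05 (2.73%), 218 higher (1.14%) and 306 lower (1.6%). Of the 1253 genes found with and without combination 1, 81.7% had the same sign in triptolide minus control, made up of 78.0% of the higher and 83.3% of the lower genes. Over all autosomal genes the share with the same sign was 51.7%, while 45.2% lay above 0 and 54.8% below 0 in triptolide minus control. The differences of both comparisons correlated across genes at a Pearson r of 0.18 and a Spearman rho of 0.10, where genes are not independent replicates. Of the 43 genes, 39 had the same sign in both comparisons, and in 34 the triptolide and control groups did not overlap in that direction, against 23.2% of all autosomal genes without overlap (9.98% higher, 13.3% lower). Hsph1 differed by 0.68 ± 0.18 in triptolide minus control, Derl3 by 0.49 ± 0.13, Igha by 0.77 ± 0.28, Eng by -0.39 ± 0.13 and Gja4 by -0.74 ± 0.13. The pan-endothelial median there was -0.35, with 22 of 22 members below 0 and 10 lower at an unadjusted p under 0.05, and the heat shock median was 0.18, with 20 of 22 above 0 and 7 higher. Alveolar type 1 markers had a median of -0.02, with 0 past that threshold, and the medians of BMP and secretory genes were -0.05 and 0.21.

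**Figure D5:**
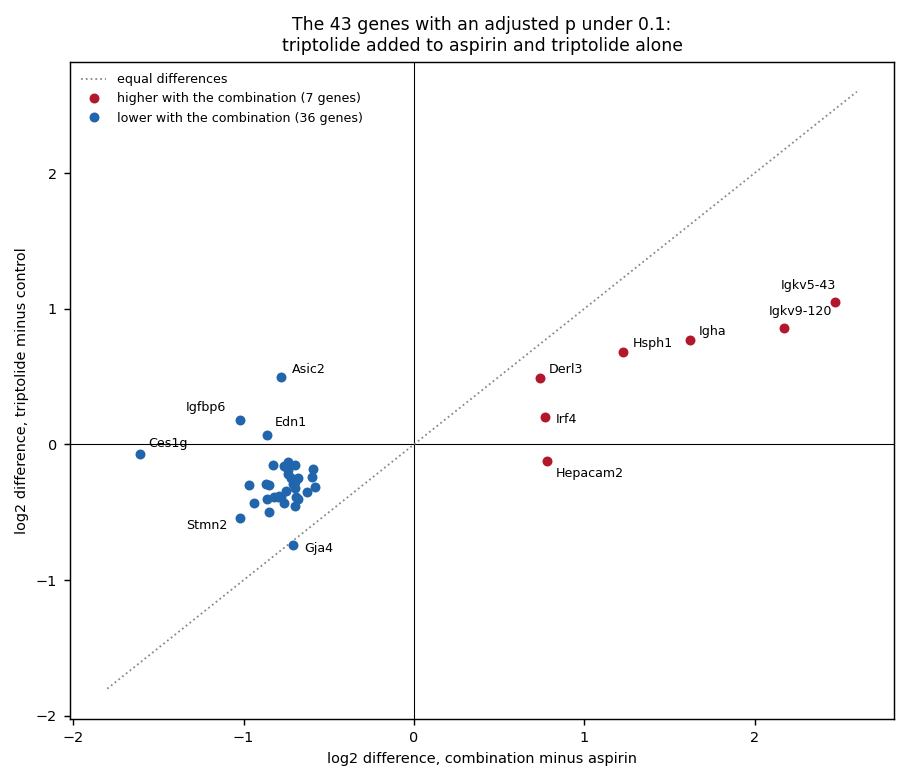
Each point is 1 of the 43 genes with a limma adjusted p under 0.1 for combination minus aspirin, with that log2 difference on the horizontal axis and triptolide minus control on the vertical axis; the dotted line marks equal differences. Most genes lie in the lower left or upper right of the plot and nearer to 0 on the vertical axis, and Asic2, Igfbp6, Edn1 and Hepacam2 have opposite signs.

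Whether the effect of triptolide differed with aspirin was tested as the interaction, combination minus aspirin minus triptolide plus control. Sex-linked expression ran opposite ways in its parts: Uty differed by -2.71 in combination minus aspirin and by 2.49 in triptolide minus control. In every gene the interaction therefore mixes sex-linked expression with any effect of aspirin on the response to triptolide. No autosomal gene passed at an adjusted p under 0.05. An unadjusted p under 0.05 was reached by 646 genes (3.37%), 216 above 0 (1.13%) and 430 below 0 (2.24%). Asic2 had the smallest (limma adjusted p = 0.264), and read 7.91, 7.89 and 7.82 with the combination and 8.62, 8.61 and 8.73 with aspirin. It read 8.09, 8.41 and 8.58 with triptolide and 7.84 and 7.87 in control, giving -0.78 ± 0.11 with aspirin present and 0.50 ± 0.13 without. Asic2 thus lay higher on the 5 arrays with a high Y-linked level, at 8.41 to 8.73, than on the 6 others, at 7.82 to 8.09, and the part of sex-linked expression in this interaction was not tested. Penk, an opioid peptide precursor named after its values were seen, followed the same order, with 8.75, 9.31 and 9.64 with the combination, 10.81, 10.30 and 10.79 with aspirin, 9.49, 10.52 and 11.08 with triptolide and 9.22 and 8.74 in control. For alveolar type 1 genes Akap5, Clic5, Hopx and Emp2 the unadjusted interaction p ran from 0.0211 to 0.0464 in the limma fit, so these 4 also failed the adjusted threshold.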

How the data were processed

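RNA of lung was measured on Affymetrix arrays, and the authors deposited log2 values, for which RMA and Partek are named per the submitters' processing notes, with no role or version given. Of 35556 rows, 21789 carried 1 gene symbol, and the row with the highest mean stood for a gene, which gave 19938 genes. Array medians lay between 8.135 and 8.254. A linear model with empirical Bayes (limma 3.58.1, R 4.3.3) covered all 11 arrays in 4 groups, two-sided, with Benjamini-Hochberg adjustment over all genes. The fit was checked on simulated arrays with independent noise. These held no outlying array and no split in sex-linked expression, so the check does not cover those features of the data. The number of arrays limits the precision. The main call was an adjusted p under 0.05, and the threshold of 0.1 was added after the values were seen. Genes named were the 8 with the smallest p in each direction without combination 1, up to 4 of smallest p per list, and known targets; the other genes with an adjusted p under 0.1, and those said to be so, were named after their values were seen. The comparison and the gene lists were chosen with earlier results of these data known. Same-numbered arrays were checked for pairing and shared only a number. The alternatives were left-out arrays, other scalings, array weights, a replicate block, the 6 arrays of this comparison alone and the Y-linked level as a covariate.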

Additional observations from a re-analysis of the deposited data

How the results depend on the processing

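The count of 0 genes at an adjusted p under 0.05 stayed 0 under most alternatives, with these exceptions. Leaving out 1 array gave 0 to 683 genes, with 0 to 108 higher and 0 to 575 lower, the most without combination 3. Array weights gave 840 (294 higher, 546 lower), and weights fitted by REML, which did not converge and were added after seeing the data, gave 6254 (3112 higher, 3142 lower). Centring the arrays, quantile normalization and a trended robust fit gave 1 each, lower, which was Tekt5 in all 3. Using only the 6 combination and aspirin arrays gave 1 without combination 1, higher, a kappa light chain segment. The count at an unadjusted p under 0.05 was 1536 to 3734 with 1 array left out, 4393 with array weights, 8364 with REML weights, 344 when the Y-linked level entered as a covariate, and 513 with that covariate and without combination 1. With the covariate the 1253 genes became 265. The cause was not tested. The replicate block gave 0 genes and 2554 at an unadjusted p under 0.05, and same-numbered deviations correlated at 0.01, -0.09 and 0.04.

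Signs turned for genes with small or variable differences, and also for some with large ones that were given above as examples. With all arrays Ms4a1 differed by 1.70, Agr2 by 1.47, Cd79a by 1.22, Muc5ac by 0.84 and Cd4 by 0.59. Under the Y-linked covariate the differences were -0.11 for Agr2, -0.01 for Cd79a, -0.43 for Clca1, -0.14 for Dnah5, 0.02 for Ercc3, -0.09 for Muc5ac, -0.28 for Pla2g2d and 0.11 for Rela. With the covariate and without combination 1 they were -0.23 for Agr2, -0.33 for Car1, -0.07 for Cd4, -0.46 for Cd79a, -1.03 for Clca1, 0.01 for Cyp2f2, 0.02 for Ercc3, 0.04 for Etv5, -0.28 for Mki67, -0.28 for Ms4a1, -0.08 for Muc5ac, 0.08 for Penk, -0.22 for Pla2g2d, -0.25 for Pou2af1, 0.03 for Ptgs2, 0.06 for Rela, 0.09 for Scgb1a1 and 0.06 for Sftpc. Without combination 1, over all arrays and over the 6 alone, Ptgs2 was at 0.09, Scgb1a1 at 0.07 and Sftpc at 0.01. With 1 array left out Ptgs2 ranged from -0.42 to 0.17 and Sftpc from -0.21 to 0.01. Ptgs2 was at 0.18 with array weights and 0.24 with REML weights, and quantile normalization put Ercc3 at 0.01 and Scgb1a1 at 0.07. Of the 920 list medians under alternatives 837 moved by less than the spread between arrays. That count includes settings that cannot move these medians: a left-out triptolide or control array, the 6 arrays alone and the replicate block. It therefore overstates how stable the medians were.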

Other observations

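Genes that belong to none of the lists above, chosen after their values were seen, added detail to the airway and immune groups. Clca1, a secreted protein of goblet cells, read 12.35, 13.06 and 8.68 with the combination and 7.41, 7.91 and 7.45 with aspirin, a difference of 3.77 ± 1.15 (limma unadjusted p = 0.0077). It read 11.80, 9.13 and 7.47 with triptolide and 8.33 and 9.35 in control, so the arrays of each triptolide-treated group were spread widely. Gp2, a surface glycoprotein of cells that sample antigen in mucosa, read 8.93, 9.60 and 8.26 with the combination and 7.22, 7.37 and 7.10 with aspirin (1.70 ± 0.32). Cxcl13, a chemokine that attracts B cells, read 11.44, 10.80 and 11.02 with the combination and 9.19, 9.91 and 10.21 with aspirin (1.31 ± 0.35). Mmp12, a macrophage elastase, differed by 1.03 ± 0.28. None of these passed at an adjusted p under 0.05.

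Glp1r, the receptor of glucagon-like peptide 1, was chosen in the same way and lay lower, at 8.84, 8.87 and 9.93 with the combination and 10.83, 10.36 and 10.69 with aspirin (-1.41 ± 0.33). In triptolide minus control Glp1r differed by -1.04, in the same direction.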
